A study of Mus musculus with 4 samples.

Results

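DEAD and DEAH box genes encode a large class of RNA helicases. Here 50 genes with symbols of this class were followed in testes of mice with and without a working copy of Nef-sp. Nef-sp is the gene of a testis-specific 3′ to 5′ exoribonuclease. The genes were taken by symbol, as every feature with sense reads in gene exons whose name begins with Ddx or Dhx and a digit, apart from Ddx4, the vasa homolog. This rule gave 34 Ddx and 16 Dhx genes among 12415 exon sense features, and all 50 passed the expression filter that left 10728 features for testing. Ddx11, a DNA helicase, and Ddx26b, a relative of an Integrator subunit, met the rule and are counted among the helicase genes. Ddx10, Ddx43 and Ddx53 were not analysed here.

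Total testicular RNA was sequenced from C57Bl/6J males on postnatal day 60, with 2 libraries from Nef-sp -/- and 2 from Nef-sp +/- animals. The mutant allele was made with the nickase form of Cas9 and a pair of guide RNAs, and carries an out-of-frame deletion of 23 bp. The founder females were mated to C57Bl/6J Rj males, so the allele was carried through the germ line and was not restricted to a cell type. The control animals were heterozygous, and all 4 libraries therefore came from animals with at least 1 deleted allele. Whether the libraries of a genotype came from unrelated animals is not given in the labels, and p-values measure only the spread between these libraries.

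Helicases of this class bind RNA through a core of paired RecA-like domains and use ATP to open short duplexes or to strip proteins from RNA. Motif II, which gives the families their names, spells aspartate, glutamate, alanine and aspartate in the DEAD box, and ends in histidine in the DEAH box. It lies in the ATP-binding site, where its acidic residues coordinate magnesium. In the testis the class is best known for Ddx25, also called GRTH, a gonadotropin-regulated helicase of Leydig cells and male germ cells that is required to complete spermatid development. Transcription ceases midway through spermatid maturation, so many sperm mRNAs are exported, stored as ribonucleoprotein and translated late, steps in which several helicases of this class act.

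Motif II was located in the translated coding sequences of GENCODE vM1 as aspartate, glutamate, any residue and then aspartate or histidine, 50 to 350 residues after motif I (glycine, any residue, glycine, lysine, and serine or threonine). The search found it in 47 of the 50 genes, and not in Ddx26b, Ddx60 or Dhx32. The stretches of 48 coding bases below are shown because they show where DEAD and DEAH genes differ and how alike close relatives are, up to Ddx19a and Ddx19b, which are identical here. They are given 5′ to 3′ on the coding strand of the mouse genome build mm9, with the 12 bases of motif II in capitals.
Ddx25 (chr9:35358902-35358949, minus strand): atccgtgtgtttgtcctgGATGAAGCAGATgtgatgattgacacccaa
Ddx19a (chr8:113502968-113503015, minus strand): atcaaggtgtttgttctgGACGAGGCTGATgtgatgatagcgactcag
Ddx19b (chr8:113535217-113535264, minus strand): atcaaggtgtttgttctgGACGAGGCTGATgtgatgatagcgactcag
Ddx5 (chr11:106646489-106646536, minus strand): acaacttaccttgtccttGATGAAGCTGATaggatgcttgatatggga
Ddx17 (chr15:79369287-79369334, minus strand): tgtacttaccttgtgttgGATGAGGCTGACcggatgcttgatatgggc
Ddx3x (chromosome X, plus strand, across 2 exons): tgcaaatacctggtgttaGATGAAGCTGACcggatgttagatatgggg
Ddx3y (chromosome Y, minus strand, across 2 exons): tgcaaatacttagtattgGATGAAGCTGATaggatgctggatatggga
D1Pas1 (chr1:188792772-188792819, plus strand): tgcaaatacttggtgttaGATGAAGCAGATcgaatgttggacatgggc
Ddx39 (chr8:86244991-86245038, plus strand): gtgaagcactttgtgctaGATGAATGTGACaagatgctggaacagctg
Dhx15 (chr5:52562717-52562764, minus strand): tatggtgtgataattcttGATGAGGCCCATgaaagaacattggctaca
Dhx36 (chr3:62297758-62297805, minus strand): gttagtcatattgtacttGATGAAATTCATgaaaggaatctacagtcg

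The fourth residue of motif II matched the symbol with few exceptions. The families are named after this motif, and the search allowed only aspartate or histidine there, so the match is a description. Of the 32 Ddx genes with the motif, 30 carried aspartate in the fourth codon, while Ddx11, a DNA helicase of sister chromatid cohesion, and Ddx58, the RNA sensor RIG-I, carried histidine. All 15 Dhx genes with the motif carried histidine. The third codon was read as alanine in 26 Ddx and 8 Dhx genes. It coded for valine in Ddx21, Ddx28 and Ddx50 and in 4 Dhx genes, for isoleucine in Dhx9 and Dhx36, for cysteine in Ddx39, Ddx58 and Dhx58, and for serine in Ddx52.

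The libraries held between 20659865 and 34442517 reads, and the deepest was Nef-sp +/- replicate 2. Nef-sp, listed as 2610020H08Rik, had 1843 and 1693 normalized counts in Nef-sp +/- against 407 and 497 in Nef-sp -/- testes, with a log2 fold change of -1.97 (SE 0.0921) and an adjusted p of 4.12e-06 by edgeR's quasi-likelihood test. It was the only exon sense feature of 10728 with an adjusted p below 0.05 (0.00932%). Normalized counts are reads divided by the library size after TMM scaling, relative to its mean over the 4 libraries. Markers of testicular cells were present in all libraries. The 6 spermatid markers summed to 317100 and 388500 normalized counts in Nef-sp +/- and to 384700 and 393900 in Nef-sp -/- testes, the 6 spermatocyte markers to between 61260 and 66110, the 3 macrophage markers to between 84.0 and 95.1, the 5 Sertoli cell markers to between 17850 and 18680, and the 5 spermatogonial markers to between 412 and 548. The 5 Leydig cell markers summed to 17370 and 17490 in Nef-sp +/- and to 13930 and 16550 in Nef-sp -/-, and the 2 globin genes to 253 and 358 against 209 and 211. Of these lists 0 genes passed the adjusted threshold, and 4 had an unadjusted p below 0.05: Cyp11a1 and Cyp17a1 (log2 fold changes -0.35 and -0.27, beside 0.15, 0.18 and 0.08 for the other Leydig markers Hsd3b1, Insl3 and Star), Tnp1 (0.18) and the globin gene Hba-a2 (-0.57). These were 2 of 5 tested Leydig markers, 1 of 6 spermatid markers and 1 of 2 globin genes. In these short lists the share lay above the 4.8% of all tested features. It was 0 of 5 tested Sertoli cell, 0 of 3 spermatogonial, 0 of 6 spermatocyte and 0 of 2 macrophage markers. Of the 4 epididymal markers only Crisp1 was listed, and it had 5 reads in a single library. The part of these cell type differences in the helicase values was not tested.

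The helicase genes differed widely in level. Levels were compared per kilobase of exon, as normalized counts divided by the summed length of all annotated exons. Ddx25 stood highest, with 7554 ± 110 in Nef-sp +/- and 7619 ± 40.1 in Nef-sp -/- testes (SD, n = 2), which placed it at percentile 98.8 of 10509 tested genes with an exon length. Ddx5, a cofactor of splicing and transcription, followed with 5804 ± 123 and 5789 ± 97.5. Every library of Ddx25 lay above every library of Ddx5, and their ratio was 1.30 ± 0.00866 in Nef-sp +/- and 1.32 ± 0.0152 in Nef-sp -/- testes. The order of this pair depended on the gene model, since Ddx5 reached 9317 when the longest transcript replaced all annotated exons and Ddx25 stayed at 7587.

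Ddx20, the Gemin3 helicase of the SMN complex that assembles spliceosomal small nuclear ribonucleoproteins, had a mean level of 2564 over the 4 libraries. It overlapped with Ddx1, a helicase of the tRNA ligase complex, at 2413. These 4 genes made up the members in the highest 10% of tested genes. Dhx40, Ddx24 and Ddx17 followed at 1413, 1369 and 1267, and each overlapped its neighbor. Dhx15, the DEAH helicase that takes apart the intron lariat spliceosome, stood at 1180 without overlap to Dhx30 at 703. The order of this pair also depended on the gene model. With the longest transcript in place of all annotated exons, Dhx30 reached 1499 and Dhx15 stayed at 1180. At the lower end were Ddx26b (6.14), Ddx55 (5.12), Ddx58 (3.61) and Ddx60 (1.93), which were the 4 members in the lowest 10%. Between neighbors in the order, the libraries of 29 pairs overlapped. The median was 247 for all members, 228 for Ddx and 254 for Dhx genes, against 132 for all tested genes, and 30 of 50 members lay above that value.

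**Figure D1:**
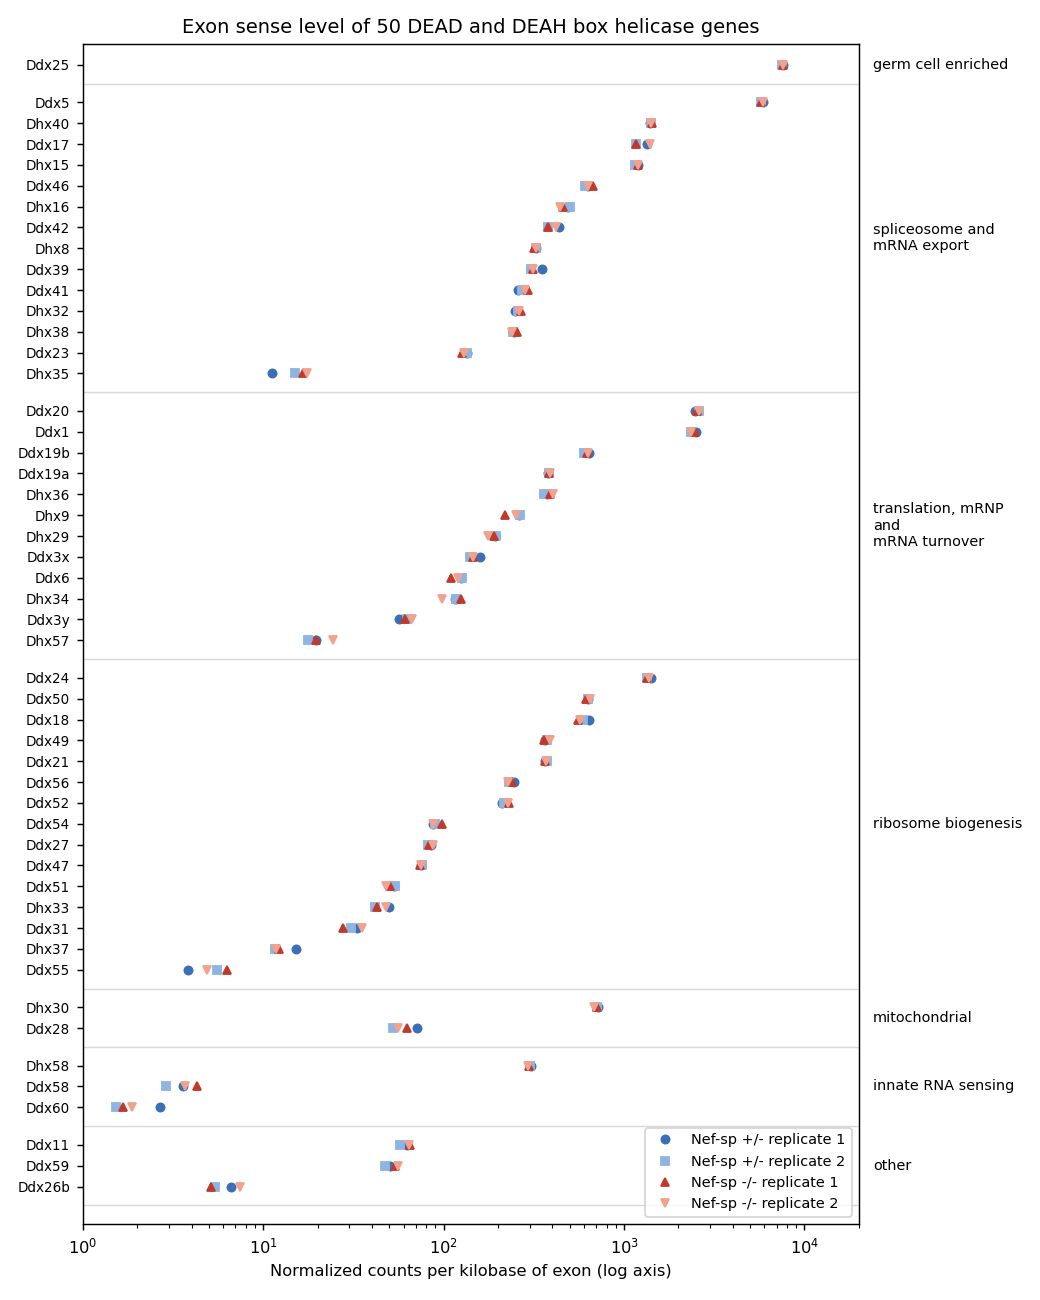
Level of each helicase gene in each of the 4 libraries, as normalized counts per kilobase of exon on a log axis, grouped by role and sorted by mean level within a role (circles and squares, Nef-sp +/-; triangles, Nef-sp -/-). The levels span from 1.93 for Ddx60 to 7587 for Ddx25, and the 4 symbols of a gene lie close together except in genes with few reads, such as Ddx60, Ddx55 and Dhx35.

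The question put to these genes was whether their RNA differed in the absence of Nef-sp. No helicase gene passed the test in exon sense reads. With edgeR's quasi-likelihood p-values adjusted by Benjamini-Hochberg over all 10728 features, 0 of 50 members had an adjusted p below 0.05, and the smallest adjusted p was 0.954. DESeq2 also called 0 members. The unadjusted p was below 0.05 in 2 of 50 members (4.0%), beside 4.8% of all tested features. Both were lower in Nef-sp -/- testes, as were 2.83% of all tested features at that level, and DESeq2 gave 0 members there. The log2 fold changes of Nef-sp -/- over Nef-sp +/- ran from -0.17 to 0.34, with 24 above 0 (49.9% of all features) and 26 below and a median of -0.0022, beside -0.0002 over all features tested. Their median size was 0.0505, beside 0.0715 for all features, and 4 members exceeded 0.2 in size, beside 14.7%. The libraries of the genotypes did not overlap for 19 of 50 members (38.0%), beside 34.5% of all tested features. Nef-sp -/- lay above in 11 of them and below in 8, beside 16.4% and 18.1% of all tested features.

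These values could also be bounded. The 95% interval of the log2 fold change lay within 0.3 of 0 for 36 members, within 0.5 for 43 and within 1 for 49. The exception was Ddx60, with 52 reads over the 4 libraries and an interval from -1.04 to 0.75. SEs ran from 0.0566 to 0.405 with a median of 0.0723. In 36 members (72.0%) the larger of the replicate differences within a genotype exceeded the difference between the genotypes, as it did in 78.2% of all tested features. As a share of exon sense reads, the 50 genes held 0.682% ± 0.0268 in Nef-sp +/- and 0.670% ± 0.0115 in Nef-sp -/- testes (SD, n = 2), and the libraries overlapped. In bulk tissue, fewer cells of a type and less RNA per cell cannot be told apart.

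**Figure D2:**
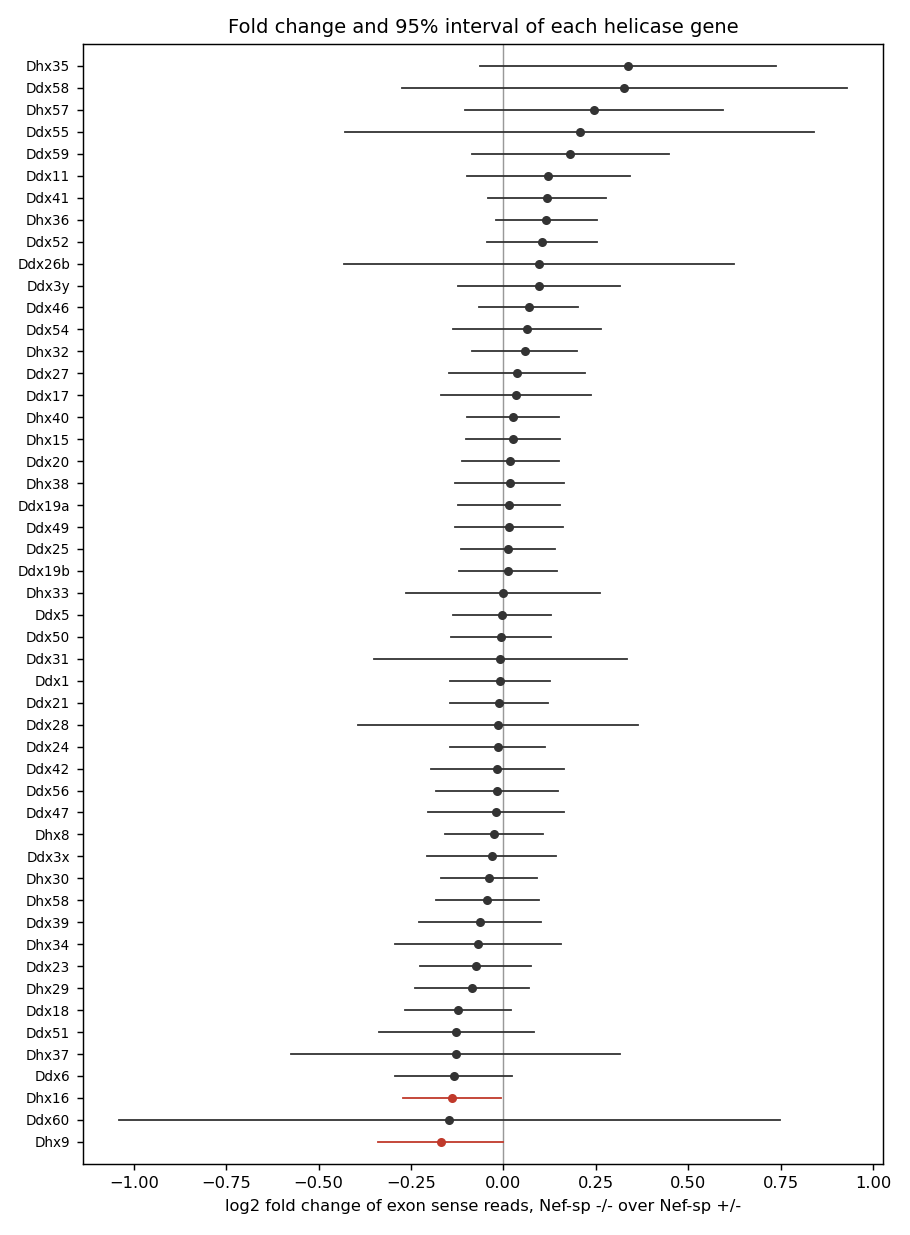
Log2 fold change of exon sense reads, Nef-sp -/- over Nef-sp +/-, for each of the 50 helicase genes, with bars for the 95% interval of edgeR's quasi-likelihood fit; the 2 genes with an unadjusted p below 0.05 are in red. Values run from -0.17 for Dhx9 to 0.34 for Dhx35, no gene had an adjusted p below 0.05, and the longest bar belongs to Ddx60.

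Role groups were assigned from general knowledge, with each gene in a single group although some act in several processes. Dhx32 and Dhx40 were counted with the spliceosome. Ddx19a, Ddx19b and Ddx20 were counted with translation, ribonucleoprotein and mRNA turnover. The 14 helicases assigned to the spliceosome and mRNA export held the largest share of the exon sense reads, 0.341% ± 0.0163 in Nef-sp +/- and 0.336% ± 0.00839 in Nef-sp -/- testes. Of their log2 fold changes 8 were above and 6 below 0, with a median of 0.02. Ddx5 had 34023 and 33017 normalized counts in Nef-sp +/- against 33034 and 33830 in Nef-sp -/- testes. The genotypes overlapped, and the log2 fold change was -0.0038 (SE 0.0596). Dhx35, found in the catalytic spliceosome, had the largest log2 fold change of all members. It had 57.5 and 77.5 normalized counts in Nef-sp +/- against 85.5 and 89.9 in Nef-sp -/- testes. Both heterozygous libraries lay below both mutant libraries. Its log2 fold change was 0.34 (SE 0.181) with an adjusted p of 0.954 by edgeR, and it ranged from 0.18 without Nef-sp +/- replicate 1 to 0.61 without Nef-sp +/- replicate 2.

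Dhx16 drives the remodeling that activates the spliceosome before the first step of splicing. It had 1989 and 2055 normalized counts in Nef-sp +/- against 1871 and 1804 in Nef-sp -/- testes. The libraries of the mutant lay below those of the control, with a log2 fold change of -0.14 (SE 0.0604), an unadjusted p of 0.0428 and an adjusted p of 0.954 by edgeR. The DEAH helicases of the later steps, Dhx38 and Dhx8, had log2 fold changes of 0.016 and -0.026, and Dhx15 of 0.025. Those of the DEAD helicases of early assembly, Ddx46 and Ddx23, were 0.07 and -0.08.

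The 12 helicases of translation, ribonucleoprotein and mRNA turnover held 0.152% ± 0.00384 of exon sense reads in Nef-sp +/- and 0.1495% ± 0.00173 in Nef-sp -/- testes, with 6 log2 fold changes above and 6 below 0 and a median of 0.0017. Ddx20 had 10283 and 10863 normalized counts in Nef-sp +/- against 10584 and 10846 in Nef-sp -/- testes, and the genotypes overlapped (log2 fold change 0.019, SE 0.0599). Dhx9, or RNA helicase A, unwinds structured RNA in transcription and translation. Its 1204 and 1227 normalized counts in Nef-sp +/- lay above the 1004 and 1158 of Nef-sp -/- testes. The log2 fold change was -0.17 (SE 0.0761), with an unadjusted p of 0.0477 and an adjusted p of 0.954 by edgeR, and it ran from -0.27 to -0.07 as single libraries were left out. The mutant libraries of this gene differed more from each other than the control libraries did.

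Dhx57 had 99.0 and 90.1 normalized counts in Nef-sp +/- against 99.3 and 123 in Nef-sp -/- testes, with a log2 fold change of 0.24 (SE 0.158), and a single mutant library stood apart from the other 3. Ddx6, which acts in translational repression and decapping, had a log2 fold change of -0.14 (SE 0.0723), and its mutant libraries lay below both control libraries. Dhx36, which resolves G-quadruplexes, had 1645 and 1574 normalized counts in Nef-sp +/- against 1711 and 1772 in Nef-sp -/- testes (log2 fold change 0.12, SE 0.0618), with no overlap. Neither passed the test, with adjusted p-values of 0.954 by edgeR for each.

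The germ cell enriched group consisted of Ddx25 alone. It had 12783 and 12523 normalized counts in Nef-sp +/- against 12715 and 12810 in Nef-sp -/- testes. The 4 values overlapped between genotypes, the log2 fold change was 0.0125 (SE 0.0574), and its 95% interval ran from -0.11 to 0.14. Ddx25 held 0.0685% ± 0.0024 of exon sense reads in Nef-sp +/- and 0.0679% ± 0.000768 in Nef-sp -/- testes.

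The 15 helicases of ribosome biogenesis act mostly in the nucleolus. They held 0.0736% ± 0.00263 of exon sense reads in Nef-sp +/- and 0.0715% ± 0.00155 in Nef-sp -/- testes, with 5 log2 fold changes above and 10 below 0 and a median of -0.0084. Ddx24, the member with the highest level, had 4444 and 4246 normalized counts in Nef-sp +/- against 4250 and 4344 in Nef-sp -/- testes, and the genotypes overlapped (log2 fold change -0.016, SE 0.0585). Ddx55 had the largest value of the group, 0.21 (SE 0.288), from 19.6 and 28.2 normalized counts in Nef-sp +/- against 32.3 and 24.8 in Nef-sp -/- testes, which overlapped. It ran from 0.0024 without Nef-sp -/- replicate 1 to 0.55 without Nef-sp +/- replicate 2. Ddx18 had a log2 fold change of -0.12 (SE 0.0653), without overlap and with an adjusted p of 0.954 by edgeR.

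Both mitochondrial members had values just below 0. Dhx30, a helicase of mitochondrial ribosome assembly, had 7006 and 6946 normalized counts in Nef-sp +/- against 6956 and 6629 in Nef-sp -/- testes (log2 fold change -0.04, SE 0.0586), and a single mutant library lay below the rest. Ddx28, which acts in the same process, had -0.014 (SE 0.172).

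The sensors of foreign RNA included both a well expressed and some barely expressed genes. Dhx58, or LGP2, a regulator of RIG-I-like receptors, had 1058 and 1042 normalized counts in Nef-sp +/- against 1021 and 1015 in Nef-sp -/- testes (log2 fold change -0.04, SE 0.0634), with the mutant libraries just below. Ddx58 had 25.3 and 20.4 normalized counts in Nef-sp +/- against 30.0 and 26.0 in Nef-sp -/- testes. Its 22 to 29 reads per library gave a log2 fold change of 0.33 (SE 0.273), and the difference was not detectable at this depth. Per kilobase, Dhx58 had a mean level of 299 and Ddx58 of 3.61. Of the remaining genes, Ddx11 had 260 and 237 normalized counts in Nef-sp +/- against 270 and 267 in Nef-sp -/- testes (log2 fold change 0.12, SE 0.0994), and Ddx59 had 148 and 139 against 158 and 166 (0.18, SE 0.121). Neither gene overlapped between genotypes and neither passed the test. Ddx26b, a relative of an Integrator subunit in spite of its name, had a log2 fold change of 0.10 (SE 0.239) from 173 reads.

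The X-linked Ddx3x, a translation initiation helicase, has a Y-linked copy, Ddx3y, and an intronless autosomal relative expressed in the testis, D1Pas1, whose symbol falls outside the rule. Ddx3x had 838 and 734 normalized counts in Nef-sp +/- against 767 and 762 in Nef-sp -/- testes, and Ddx3y 264 and 289 against 283 and 311. Per kilobase, the ratio of Ddx3x to Ddx3y was 2.52 ± 0.396 and 2.27 ± 0.163, and that of D1Pas1 to Ddx3x 11.1 ± 2.40 and 10.5 ± 0.343 (Nef-sp +/- and Nef-sp -/-, SD, n = 2). Both ratios overlapped between genotypes. The ratio of D1Pas1 to Ddx3y did not overlap, with 26.2 and 28.5 in Nef-sp +/- against 25.6 and 22.1 in Nef-sp -/- testes. This ratio was not tested, and the counts of 34.5% of all tested features did not overlap either. In each library D1Pas1 stood above Ddx3x, and Ddx3x above Ddx3y. The coding sequences of Ddx3x and D1Pas1 are 87.4% identical and those of Ddx3x and Ddx3y 84.6%, and the printed windows differ at 7 and 9 of 48 bases.

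Ddx25 and the Ddx19 genes form another family. Per kilobase, Ddx25 stood 12.2 ± 0.409 times above Ddx19b in Nef-sp +/- and 12.2 ± 0.102 times in Nef-sp -/- testes. Their coding sequences are 68.4% identical, and 12 of the 48 bases around motif II differ. Ddx19b, an export helicase of the nuclear pore, had 4323 and 4039 normalized counts in Nef-sp +/- against 4172 and 4254 in Nef-sp -/- testes, and Ddx19a had 1123 and 1130 against 1134 and 1143. Ddx19b lay above Ddx19a by 1.63 ± 0.0846 and 1.62 ± 0.0131 times per kilobase. The coding sequences of this pair are 93.2% identical, the windows differ at 0 bases, and 831 stretches of 50 bases occur in transcripts of both, so that reads from these stretches cannot be told apart.

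Ddx17, the close relative of Ddx5, had 6403 and 5524 normalized counts in Nef-sp +/- against 5542 and 6658 in Nef-sp -/- testes. The replicates of each genotype differed by more than the genotypes did (log2 fold change 0.03, SE 0.0925). Ddx5 exceeded Ddx17 by 4.65 ± 0.386 and 4.55 ± 0.513 times per kilobase. The nucleolar pair Ddx21 and Ddx50 had 1724 and 1780 against 1729 and 1748, and 1732 and 1749 against 1691 and 1775 normalized counts, and the ratio of Ddx21 to Ddx50 was 0.586 ± 0.00937 and 0.584 ± 0.0156 per kilobase. Ddx39, an mRNA export helicase, had 1810 and 1568 normalized counts in Nef-sp +/- against 1610 and 1612 in Nef-sp -/- testes. Its relative Ddx39b, listed as Bat1a, stood at 0.905 ± 0.0212 and 0.878 ± 0.034 of the level of Ddx39 per kilobase.

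**Figure D3:**
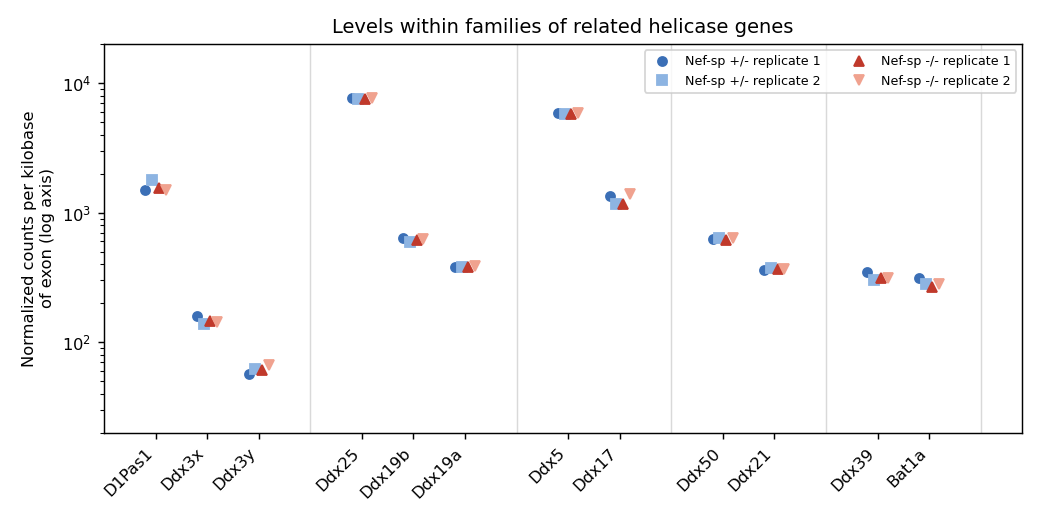
Levels of related helicase genes in each of the 4 libraries, as normalized counts per kilobase of exon on a log axis (circles and squares, Nef-sp +/-; triangles, Nef-sp -/-; gray lines separate the families). D1Pas1 stands above Ddx3x and Ddx3y, and Ddx25 above Ddx19b and Ddx19a, in all 4 libraries.

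The authors kept only perfect matches, and how reads with several matches were counted is not given in the sources used here. The 50-base stretches of each gene's longest protein-coding transcript were therefore looked up on both strands of mm9. Of the stretches that could be placed, 65.7% of Ddx18, 40.9% of Ddx19a, 25.0% of Ddx5, 18.2% of Ddx6, 16.5% of Ddx3x, 16.5% of Ddx50 and 10.4% of Ddx19b occurred at several places, and the levels of these genes are uncertain to that extent. Ddx25 and D1Pas1 had 0 such stretches. Stretches with no place in the genome, such as those across exon junctions, were left out of these percentages. They numbered 1147 of 2458 in Ddx1, 521 of 1626 in Ddx25, 465 of 2856 in Ddx20 and 737 of 4643 in Ddx3x. In D1Pas1 they numbered 0 of 3163. Whether reads from them entered the counts was not tested. The levels and ratios of these genes are uncertain to that extent as well.

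Intron sense reads, a readout of unspliced RNA that the choice of genes did not use, were listed for 37 members. Those of Ddx5 and Ddx17 made up 12501 of the 15390 reads (81.2%), and only 13 members passed the expression filter. Of these 13, 0 had an adjusted p below 0.05 by edgeR's quasi-likelihood test, beside 0.0294% of the 3403 features tested, and DESeq2 called 0 of them as well. The unadjusted p was below 0.05 for 1 member (7.69%), beside 2.35% in either and 1.15% in the same direction, and for 0 by DESeq2. The log2 fold changes were above 0 for 10 members, beside 52.1% of tested features, and below 0 for 3, with a median of 0.11, beside 0.01 over all features tested. The genotypes did not overlap for 4 members, all with Nef-sp -/- above, beside 13.5% of tested features in that direction. Dhx36, described next, is among them and accounts for the single unadjusted p below 0.05. It passed the expression filter only through the Nef-sp -/- libraries, so it had to be higher there. The 10 members above 0, the median of 0.11 and both of these counts include it. As single libraries were left out, 14 or 15 members were tested. Their median ran from 0.035 (without Nef-sp -/- replicate 2, 8 of 14 above 0) to 0.19 (without Nef-sp -/- replicate 1, 11 of 15). Without Nef-sp +/- replicate 1, 13 of 14 were above 0, and without Nef-sp +/- replicate 2, 10 of 15.

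The member at an unadjusted p below 0.05 was Dhx36, with 6.73 and 6.62 normalized counts in Nef-sp +/- against 16.7 and 15.4 in Nef-sp -/- testes. The underlying reads numbered 6 and 9 against 14 and 14, so that the gene passed the expression filter, with its minimum count of 10, only through the Nef-sp -/- libraries. A gene tested on that condition had to be higher there, and its p is given as a description. The log2 fold change was 1.25 (SE 0.453), with an unadjusted p of 0.0118 and an adjusted p of 0.9996 by edgeR. As a share of the exon and intron sense reads of the gene, introns held 0.410% ± 0.0121 in Nef-sp +/- and 0.931% ± 0.0070 in Nef-sp -/- testes, and the libraries did not overlap. This share rests on the same intron reads and is likewise given only as a description.

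Introns took a larger share in Ddx17 than in the other tested members, 13.5% and 14.4% in Nef-sp +/- against 13.6% and 15.6% in Nef-sp -/- testes, which overlapped. Ddx11 had 9.60% and 11.3% against 8.95% and 12.7%, and Ddx5 6.22% and 5.47% against 5.59% and 6.97%. In Ddx39 the shares were 5.70% and 6.51% against 6.76% and 7.85%, and in Dhx15 4.29% and 4.87% against 4.86% and 5.43%. The median share was 4.07% over the 13 members and 3.09% over the 3294 genes tested in both categories. Ddx20, Ddx19b and Ddx1, with exon levels in the upper range, had pooled shares of 0.322%, 0.334% and 0.389%. The 16 intron reads of Ddx25 made up 0.0315% of its sense reads.

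**Figure D4:**
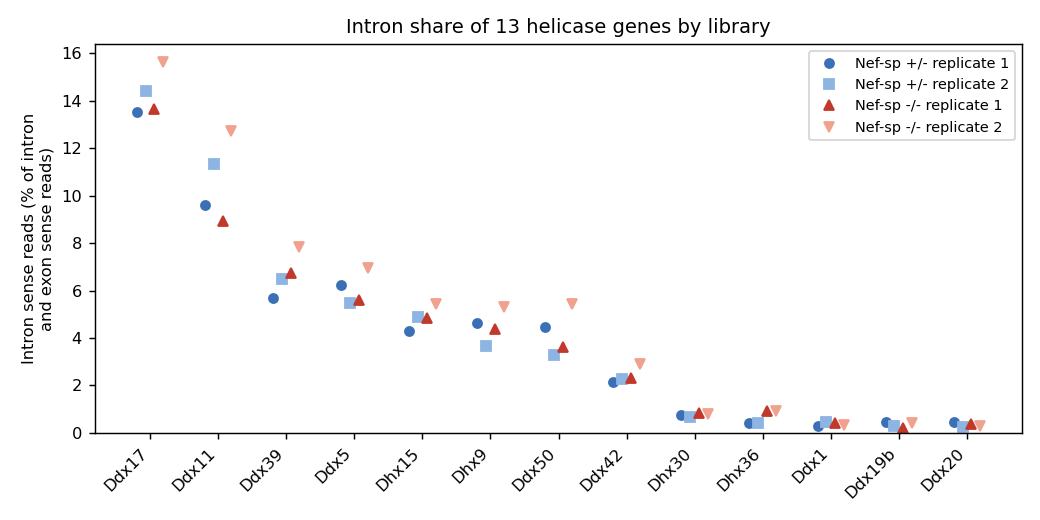
Intron sense reads as a percentage of intron and exon sense reads for the 13 helicase genes tested in both categories, 1 symbol per library (circles and squares, Nef-sp +/-; triangles, Nef-sp -/-). Ddx17 lies between 13.5% and 15.6%, and the genes on the right, from Dhx30 to Ddx20, lie below 1% in every library.

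Reads on the opposite strand of exons were listed for 12 members, of which 3 passed the expression filter, and 0 of these had an adjusted p below 0.05 by edgeR, beside 0% of 1008 features (2.98% at an unadjusted p below 0.05, and 0 of the 3 members). Ddx54, a nucleolar helicase and nuclear receptor cofactor, was the only tested member with more antisense than sense exon reads, which was the case in 113 of 812 genes tested on both strands (13.9%). It had 1002 and 1814 antisense reads in Nef-sp +/- against 1024 and 994 in Nef-sp -/- testes, beside 300 and 499 sense reads in Nef-sp +/- against 333 and 291 in Nef-sp -/- testes. Antisense reads thus made up 77.0% and 78.4% of its exon reads in Nef-sp +/- against 75.5% and 77.4% in Nef-sp -/- testes. The log2 fold change was -0.03 (SE 0.0829, adjusted p of 0.996 by edgeR) for antisense and 0.06 (SE 0.0904) for sense exon reads.

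The introns of Ddx54 had 279 and 419 antisense reads in Nef-sp +/- against 257 and 240 in Nef-sp -/- testes (log2 fold change -0.10, SE 0.111), and no intron sense reads were listed. GENCODE vM1 has no gene on the opposite strand of Ddx54. The nearest protein-coding gene on that strand, 1110008J03Rik, lies 530 bases away and had 46 exon sense reads over the 4 libraries. The other member tested for intron antisense reads was Dhx35, with 123 antisense and 5 sense intron reads (log2 fold change 0.14, SE 0.275). Of the 1421 features of this category 0% had an adjusted p below 0.05 and 4.5% an unadjusted p below 0.05, with 0 of the 2 members. Dhx57 had 57 and Dhx32 had 91 exon antisense reads in all. Exons of Morn2 and Bccip overlap theirs on the opposite strand by 126 and 204 bases. Other members with longer overlaps had fewer such reads. Ddx39, with 895 bases shared with Cd97, had none listed, and Ddx49, with 874 shared with Homer3, had 10. Cd97 and Homer3 had 52 and 5 exon sense reads, against 16388 for Morn2 and 330 for Bccip. Whether the antisense reads lie in the overlaps was not tested.

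**Figure D5:**
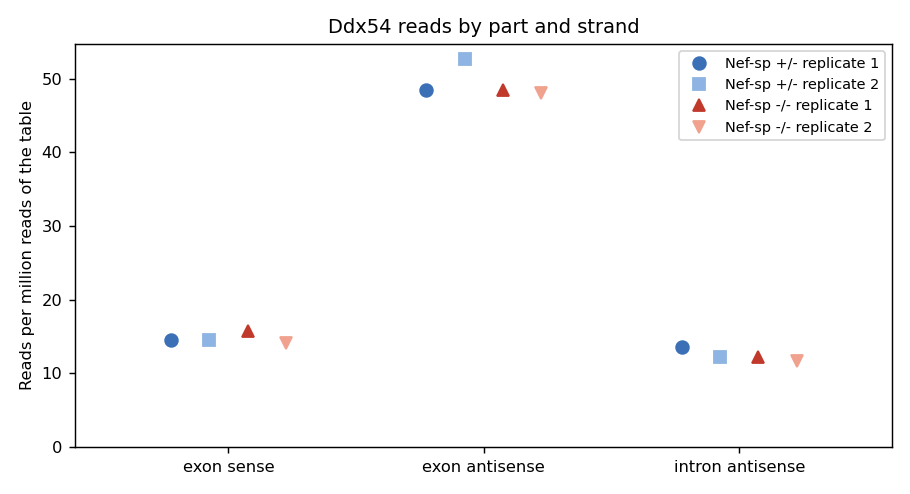
Reads of Ddx54 relative to all reads of the library (RPM), for exon sense, exon antisense and intron antisense reads in each library (circles and squares, Nef-sp +/-; triangles, Nef-sp -/-). Exon antisense reads lie between 48.05 and 52.7 RPM, above the 14.1 to 15.8 of exon sense reads in every library.

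Genes that work with these helicases were read from the same fit. Of 17 tested RNA helicases outside the symbol rule, such as the Eif4a translation factors and Upf1, 0 had an adjusted p below 0.05, with 6 log2 fold changes above and 11 below 0. The only member of that list at an unadjusted p below 0.05 was Helz, with 397 and 356 normalized counts in Nef-sp +/- against 298 and 319 in Nef-sp -/- testes (log2 fold change -0.28, SE 0.0953). Of 18 G-patch proteins, which activate DEAH helicases, 0 passed the adjusted threshold, with 9 above and 9 below 0. Among them Sf4, now Sugp1, had 1295 and 1341 against 1102 and 1187 normalized counts (log2 fold change -0.21, SE 0.0665) and an unadjusted p of 0.0106 by edgeR. Of 22 activators and partners of DEAD box helicases 0 passed, with 7 above and 15 below 0. Eif4g3, a scaffold that binds Eif4a, had 7004 and 7038 against 6394 and 5926 normalized counts (log2 fold change -0.19, SE 0.0613) and an unadjusted p of 0.0108. The 8 tested SMN complex partners of Ddx20 had 0 at either threshold, with 5 above and 3 below 0. Helz, Sf4 and Eif4g3 each had an adjusted p of 0.954 by edgeR, and their libraries did not overlap between genotypes, as for 34.5% of all tested features. They were 1 of 17, 1 of 18 and 1 of 22 genes, beside 4.8% of all tested features with an unadjusted p below 0.05.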

How the data were processed

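RNA of 4 testis samples, 2 of each genotype, was depleted of ribosomal RNA, made into stranded libraries and sequenced for 50 cycles. The authors used in-house tools to trim adapters and to align the reads to mm9, retained perfect matches only, and deposited unnormalized counts for each feature and annotation category. They also deposited a mean normalized signal, log2 fold changes, p-values and adjusted p-values of their own DESeq2 comparison, which were not used here.

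From the counts, exon sense, intron sense and antisense categories were each fitted in edgeR 4.0.16 (R 4.3.3; TMM, filterByExpr with a minimum count of 10, quasi-likelihood test without covariates), with Benjamini-Hochberg adjustment over the whole category and a threshold of 0.05. SEs were derived from the F statistic of each fold change. DESeq2 1.42.0 was an alternative. Gene models were those of GENCODE vM1 on mm9 (12130 of 12415 features matched), and older symbols were matched through RefSeq. Residues of motif II were read from translated coding sequences, and no separate protein entries were used.

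Genes were named by rule: unadjusted p below 0.05, the highest level or largest fold change of a role, and related pairs. Ddx6, Ddx18, Ddx46, Ddx23, Dhx38, Dhx8, Dhx15, Ddx28, Ddx26b and Ddx54, and the genes given only by level, intron or antisense share, were added after their values were seen. The members and lists were chosen with earlier results of these data known. Totals of 20659865 to 34442517 reads set the counting precision. Alternatives were other scalings and filters, a single fit over the 10 categories, a replicate block, longest-transcript lengths and each library left out.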

Additional observations from a re-analysis of the deposited data

How the results depend on the processing

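In every alternative run, 12 in exon sense and 9 in intron sense, 0 helicase genes passed the adjusted threshold, and the smallest adjusted p was 0.227 (Dhx9, edgeR, replicate numbers crossed). Over all exon sense features the count of 1 became 2 with DESeq2 and ran from 1 to 252 as single libraries were left out, with 41 without Nef-sp +/- replicate 1 and 252 without Nef-sp +/- replicate 2. Replicate numbers are not said to pair the libraries, and deviations of same-numbered libraries correlated at -0.0854 in exon and -0.145 in intron sense reads. With the replicate block, 1 feature and 0 helicases passed in each category, and no call at the adjusted threshold changed. In that edgeR fit 0 of 50 helicases had an unadjusted p below 0.05 in exon sense reads, beside 2 (Dhx16 and Dhx9) in the main fit. With the numbers crossed, chosen after that correlation was seen, 99 exon sense and 2 intron sense features passed. Library size over all categories gave 0 intron sense features, moved the helicase median from -0.0022 to -0.026 beside -0.023 for all features, left 18 of 50 helicases above 0, and put Ddx19a at -0.0083, Ddx19b at -0.013, Ddx20 at -0.0051 and Ddx25 at -0.012. The helicase share became 0.524% and 0.515% of all reads, and the median level 263 per kilobase with longest transcripts; the added or removed reads and bases account for both.

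With each library left out in turn, the median ran from -0.022 to 0.036. Of 50 helicases, 35 were above 0 without Nef-sp +/- replicate 1 and 21 without Nef-sp +/- replicate 2. The count was 27 without Nef-sp -/- replicate 1 and 24 without Nef-sp -/- replicate 2, beside 24 in the main fit. Single genes were followed through these fits only if named by rule, so other members that crossed 0 are not listed. Among the genes followed, the log2 fold change crossed 0 in exon sense reads for Ddx5 (-0.025 to 0.019), Ddx50 (-0.038 to 0.028), Ddx17 (-0.10 to 0.16), Ddx20 (-0.019 to 0.060), Ddx24 (-0.048 to 0.018), Ddx39 (-0.17 to 0.039), Ddx3x (-0.13 to 0.060), Ddx19b (-0.037 to 0.062), Ddx21 (-0.034 to 0.012) and Ddx25 (-0.0020 to 0.028). In intron sense reads the same held for Ddx19b (-0.63 to 0.15), Dhx30 (-0.054 to 0.31), Ddx11 (-0.11 to 0.28), Ddx17 (-0.11 to 0.22), Ddx20 (-0.42 to 0.23), Ddx5 (-0.056 to 0.16), Ddx50 (-0.077 to 0.44) and Dhx9 (-0.13 to 0.20). Values from few reads also moved with single libraries, as in Ddx58 (0.15 to 0.46), Dhx57 (0.087 to 0.39) and Ddx11 (0.048 to 0.18). Of 423 alternative values, 383 were classed as unchanged, 29 changed sign and 11 moved. For fold changes, followed only in genes named by rule, unchanged meant the same direction and side of the threshold. The helicase median was classed as unchanged within 0.0234 of its main value, whatever its sign. It turned positive with DESeq2 size factors (0.00082) and without Nef-sp -/- replicate 1 (0.015), both classed as unchanged. Counts past the threshold have no direction and were classed by size. The 95% intervals of Ddx26b, Ddx55, Ddx58, Ddx60, Dhx35, Dhx37 and Dhx57 reached past 0.5 in size, from 52 (Ddx60) to 404 (Dhx57) reads. The reach of an interval depends on the estimate as well as on depth. Ddx28, with an SE of 0.172 and an estimate of -0.014, stayed within 0.5, while Dhx57, with an SE of 0.158 and an estimate of 0.24, did not.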
